A study of Manihot esculenta with 32 samples.

Results

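Leaf and fibrous root are the organs with which a cassava (Manihot esculenta) plant takes up carbon and light on one side and water and minerals on the other. Here they are compared in the libraries titled Leaf, with 3 replicates, and Fibrous Root, with 3 replicates, which are 6 of the 32 RNA-seq libraries in a gene expression atlas of 11 tissue/organ types. The comparison covered every locus that carries a gene name, 32732 of 38593. All plants were of cultivar TME 204 (TME204 in the labels), 3 months old, raised from in vitro micropropagated plants and kept in a glasshouse. The sources name no transgene, mutation or treatment for either organ, so organ is what sets the groups apart. Leaf and fibrous root were harvested in the early afternoon, their RNA was isolated with the same kit, and polyadenylated RNA of all libraries was sequenced in a single lane. The study calls its replicates biological. They are bulk samples of whole organ pieces, in which fewer cells of a type and less RNA per cell cannot be told apart.

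A leaf captures light in the photosystems of its chloroplasts, and the Calvin cycle there uses the captured energy to fix CO2 into sugar. Sucrose is loaded into the phloem and reaches the roots, where sucrose synthase and invertases break it down. Fibrous roots take up water through aquaporins and nitrate, ammonium, phosphate and metals through membrane transporters, and lignin in the Casparian strip and suberin seal the path into the stele. In cassava some roots thicken into storage roots, while the fibrous roots remain thin and absorbing. Roles given for single genes are those known for proteins of that name in Arabidopsis and other plants, and none was tested in cassava here.

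Levels are FPKM, fragments scaled to transcript length and library size, as the authors computed them per locus, and are listed in the order of replicates 1, 2 and 3. The test was edgeR's quasi-likelihood test on fragment counts, with p-values adjusted over all tested loci by the Benjamini-Hochberg method, and every adjusted p below comes from it. A locus was called where the adjusted p was below 0.05 and the mean FPKM of the organs differed by more than 4-fold. A log2 fold change is fibrous root minus leaf, so a negative value is higher in leaf, and SE is its standard error. Where every library of the lower organ held at most 3 fragments, the fold is given as a lower bound at that floor. The fitted log2 fold change of such a gene lies beyond the bound and is no measured size.

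Of 24723 loci whose mean reached 1 FPKM in either organ, 29.7% were called, 14.5% higher in leaf and 15.2% higher in fibrous root. When every library was instead rescaled to an FPKM sum of 1000000, 68.7% of 8036 called loci were higher in fibrous root, against 51.3% on the deposited scale, and the median log2 ratio moved by 0.86. FPKM added to between 1595334 and 1665591 per library in leaf and to between 816361 and 1015065.9 in fibrous root. Changes below are on the deposited scale. Leaf genes up to about 7.50-fold lost their calls on the other scale, and not every such loss is marked where the gene occurs. Libraries held 8415903 to 15212032 fragments on named loci in leaf and 9463794 to 11720682 in fibrous root. Pearson's r of log2 CPM (counts scaled to the TMM-adjusted library total) across loci was 0.964 to 0.980 between libraries of the same organ and 0.665 to 0.693 between organs. Genes are not independent replicates in those values.

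The organs reached their calls at different levels. Called loci had a median of 33.1 FPKM in leaf and 8.45 FPKM in fibrous root. At 300 FPKM or more in the higher organ stood 315 loci called in leaf and 86 called in fibrous root, and at 1000 FPKM or more 110 and 12. The loci called in leaf held 57.8% of the leaf FPKM sum, whereas those called in fibrous root held 16.7% of the fibrous root sum. The lower organ was at or under the floor of 3 fragments at 701 loci called in leaf and at 1594 called in fibrous root. Among the 19866 loci above the floor in every library of both organs, 12.2% were called in leaf and 6.80% in fibrous root.

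**Figure D1:**
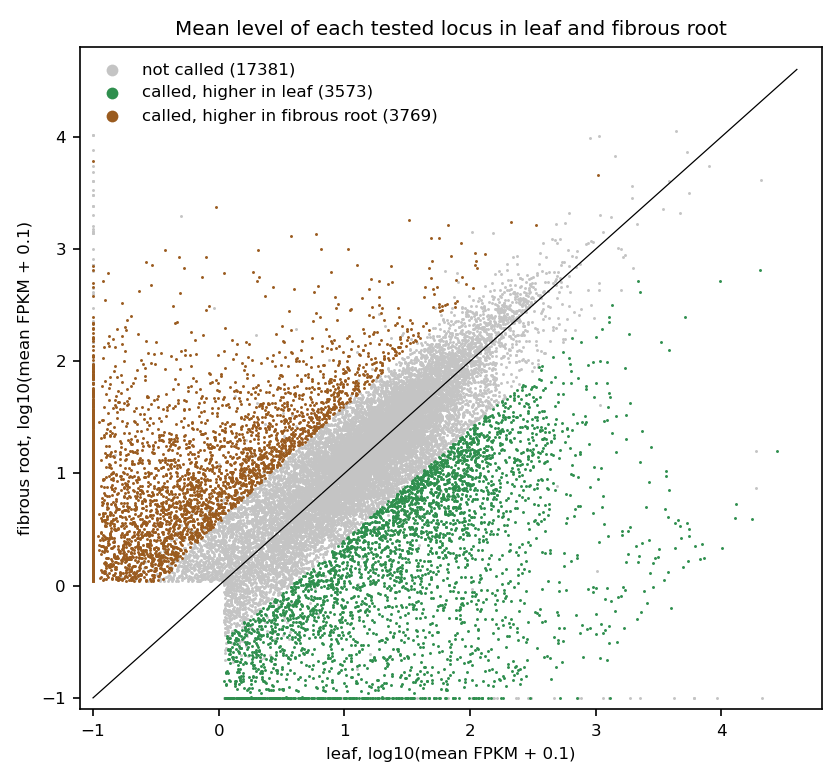
Mean FPKM of each tested locus in leaf (x axis) and fibrous root (y axis), both on a log10 scale after adding 0.1, with loci called in leaf, called in fibrous root and not called in separate colours. The 3573 leaf calls reach higher levels than the 3769 fibrous root calls, and 17381 loci were not called.

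Some loci far from the diagonal were not called. Of 452 loci past the fold limit without a call, 327 held at most 30 fragments over the 6 libraries. At 300 FPKM or more this was 49 of 59, and the 59 had a median of 2 fragments. Among the 401 called loci at 300 FPKM or more, the median was 17451 fragments and 5 held at most 30.

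Gene functions come from the annotation in the gene lists that accompany the study, which covered 4849 of the 32732 named loci. Of the annotated loci, 4390 were tested and 66.5% were called, 29.2% in leaf and 37.4% in fibrous root. Of all annotated loci, 1998 are in the study's own list of differences between leaf and fibrous root, which was chosen on these libraries. Its list of differences between storage root and fibrous root holds 1983, partly the same loci, and was chosen in part on the same fibrous root libraries. The share over annotated loci, and group counts that rest on these lists, are therefore not independent evidence. A list that the study made from organized embryogenic structures (OES) and friable embryogenic callus (FEC), grown in culture, used no leaf or fibrous root library. Of its 1577 tested loci, 20.8% were called in leaf and 35.6% in fibrous root. Each group of genes below that has tested loci in that subset is also counted there. The counts describe groups, and no test was run on a group as a whole.

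**Figure D2:**
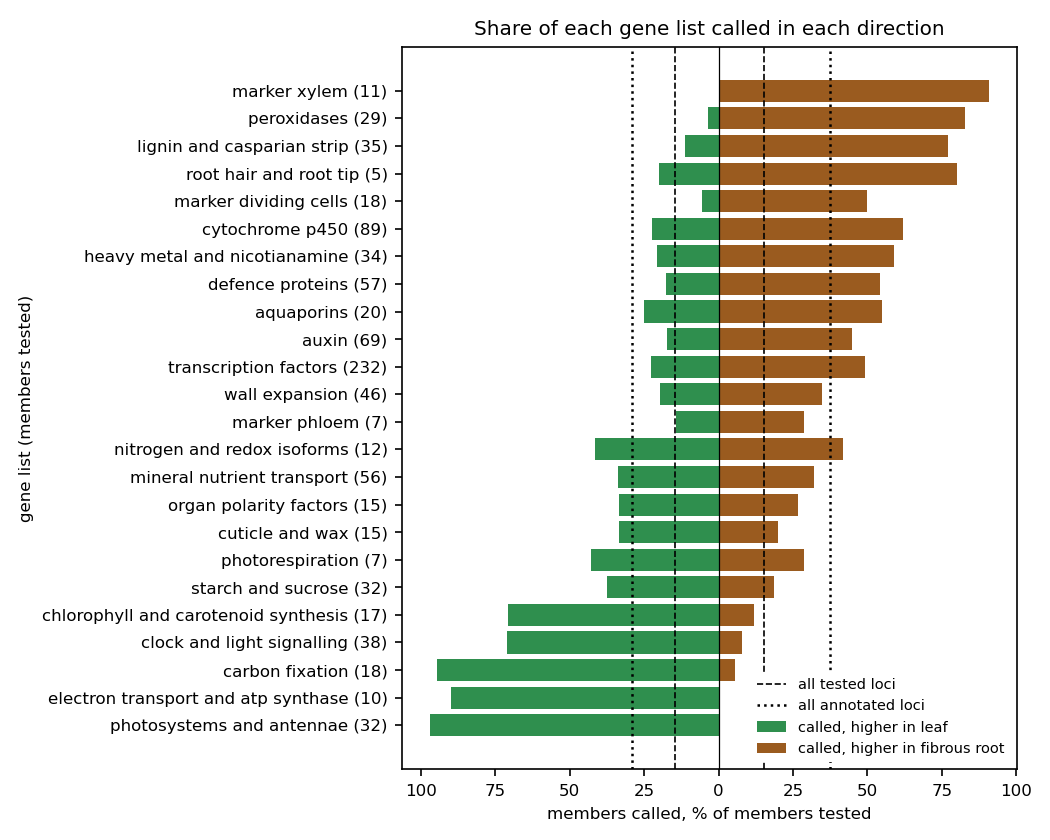
Share of the tested members of each gene group that was called higher in leaf (bars to the left) or in fibrous root (bars to the right), in percent, for groups with at least 5 tested members. Dashed lines mark the shares over all tested loci, 14.5% and 15.2%, dotted lines those over all annotated loci, 29.2% and 37.4%, and the bars run from photosystems, with 31 of 32 called in leaf, to xylem markers, with 10 of 11 called in fibrous root. Of the xylem marker calls, 7 are fasciclin-like loci close together on chromosome 4.

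Genes of the photosynthetic light reactions were higher in leaf almost throughout. Of 32 measured loci annotated as photosystem or antenna proteins, 31 were called in leaf and 0 in fibrous root, with 12 of 12 in the OES and FEC subset. Their FPKM summed to between 61623 and 73473 per leaf library and to between 113 and 132 per fibrous root library. Manes.12G097200, a subunit of the oxygen-evolving complex that splits water, is not among the 32 loci, which were matched by words, nor in their sums. It stood at 5275, 5255 and 6131 FPKM in leaf and at 2.97, 2.76 and 3.48 FPKM in fibrous root. That is 1810.1-fold (log2 fold change -10.81, SE 0.45, adjusted p = 8.51e-17). Manes.08G091700, a light-harvesting protein of photosystem II, stood at 4575, 3317 and 2790 FPKM against 3.69, 4.96 and 5.41 FPKM. Photosystem I subunit G, Manes.01G006400, was at 3919, 3812 and 3206 FPKM and remained at 8.37, 8.92 and 13.8 FPKM in fibrous root, 352-fold lower. For these genes every leaf library lay far above every fibrous root library.

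Electron carriers showed the same order. Of 10 loci for electron transport and ATP synthase, 9 were called in leaf and 0 in fibrous root (1 of 1 in the OES and FEC subset). Plastocyanin, Manes.05G142000 (AM560-2 v6.1 chromosome 5, 20200719 to 20208156), is the copper protein that passes electrons to photosystem I. It was at 5574, 7400.0 and 7200.5 FPKM in leaf and at 2.05, 1.12 and 1.73 FPKM in fibrous root (log2 fold change -11.74, SE 0.48, adjusted p = 6.3e-17). Both exceptions in these groups are loci named for proteins that plants usually encode in the chloroplast genome. Manes.02G204700, annotated as PsbC, was at 0, 1.30 and 6.58 FPKM in leaf and 0 in the 3 fibrous root libraries (adjusted p = 0.106). Manes.04G107700, annotated as PetD, was at 4.48, 7.11 and 12.5 FPKM in leaf and at 1.87, 13.2 and 8.48 FPKM in fibrous root (adjusted p = 0.408), so its libraries overlapped. Both were singled out after their values were seen.

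Carbon fixation followed, with 17 of 18 loci called in leaf and 1 in fibrous root, and 6 of 6 in leaf in the OES and FEC subset. The group summed to between 52360 and 88036 FPKM per leaf library and to between 122 and 171 FPKM per fibrous root library. Rubisco, the enzyme that binds CO2, has a small subunit encoded in the nucleus by a small family. Manes.01G011500 (chromosome 1, 2015239 to 2017292) stood at 18972, 29168 and 35377 FPKM in leaf and at 19.7, 11.5 and 15.6 FPKM in fibrous root, 1784-fold lower (log2 fold change -10.81, SE 0.46, adjusted p = 1.26e-16). Manes.05G137400 (chromosome 5, 18903086 to 18904264) was at 10502, 21222 and 20774 FPKM against 2.90, 4.27 and 4.27 FPKM (log2 fold change -12.19, SE 0.57, adjusted p = 8.38e-16). The third annotated small-subunit gene was the exception. Manes.06G023400 (chromosome 6, 4491677 to 4493204) was at 9.36, 4.98 and 7.29 FPKM in leaf and at 76.0, 51.3 and 35.3 FPKM in fibrous root, 7.52-fold higher there (log2 fold change 2.78, SE 0.38, adjusted p = 5.84e-07). Its highest mean among the 11 sample types was 1081 FPKM in storage root, where Manes.01G011500 had 119 FPKM.

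Other steps of carbon fixation were as far apart. Carbonic anhydrase 1 interconverts CO2 and bicarbonate, and its locus Manes.15G167500 was at 9841, 9860.2 and 10377 FPKM in leaf and at 1.40, 1.93 and 2.84 FPKM in fibrous root, 4874-fold lower. A further locus of that name, Manes.17G116800, was at 3012, 2738 and 6167 FPKM against 0.143, 0.656 and 0.812 FPKM. Fructose-bisphosphate aldolase 2, Manes.04G083800, was at 4269, 4714 and 5189.8 FPKM against 2.25, 2.66 and 2.82 FPKM. Sedoheptulose-bisphosphatase, an enzyme of the Calvin cycle, was chosen after its values were seen. Its locus Manes.07G124800 was at 625, 665 and 1033 FPKM against 0.286, 0.259 and 0.504 FPKM, 2215-fold (log2 fold change -11.09, SE 0.42, adjusted p = 1.47e-17).

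Photorespiration recycles the product that Rubisco makes when it binds oxygen. Of 7 loci, 3 were called in leaf and 2 in fibrous root (0 of 1 in the OES and FEC subset). The leaf calls were hydroxypyruvate reductase, Manes.04G076300, at 1128, 809 and 962 FPKM against 10.3, 11.6 and 11.9 FPKM, and 2 loci of alanine:glyoxylate aminotransferase. The larger of these, Manes.02G141600, was at 508, 326 and 439 FPKM in leaf and at 3.66, 4.12 and 6.42 FPKM in fibrous root, 89.6-fold lower. Loci annotated as alanine:glyoxylate aminotransferase 3 stood the other way round. Manes.09G114900 was at 1.42, 2.02 and 2.24 FPKM in leaf and at 29.5, 35.1 and 12.2 FPKM in fibrous root, 13.5-fold higher (log2 fold change 3.80, SE 0.45, adjusted p = 4.49e-08). Manes.08G172900 was at 0.140, 0.1001 and 0 FPKM against 5.38, 4.12 and 2.45 FPKM, at least 20.9-fold higher in fibrous root. Thus the aminotransferase family had members called in each organ. Of serine hydroxymethyltransferase, the group held only loci annotated as forms 7 and 4, and these were called in neither organ. Other forms of the enzyme were not among the annotated loci of the group. Manes.18G072100 was at 25.4, 57.4 and 139.8 FPKM in leaf and at 25.7, 28.7 and 29.9 FPKM in fibrous root, and Manes.03G144000 at 35.8, 37.4 and 36.4 FPKM against 29.0, 28.4 and 33.0 FPKM.

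Pigment synthesis had 12 of 17 loci called in leaf and 2 in fibrous root, with 2 and 1 of 4 in the OES and FEC subset. Protochlorophyllide oxidoreductase A, the light-driven step of chlorophyll synthesis, was at 451, 589 and 630 FPKM in leaf for Manes.03G113300 and at 1.37, 1.78 and 1.03 FPKM in fibrous root, 399-fold lower. Glutamyl-tRNA reductase, Manes.05G187000, which starts the pathway that also leads to haem, was at 295, 350 and 446 FPKM against 24.1, 27.2 and 26.8 FPKM. Its fibrous root level is the highest among the pigment loci named here. Phytoene synthase, the entry to carotenoids, differed by locus. Manes.02G081700, chosen after its values were seen, was at 193, 140 and 165 FPKM in leaf and at 3.96, 4.17 and 5.46 FPKM in fibrous root, 36.6-fold lower. Manes.03G084700 was at 0 in the 3 leaf libraries and at 1.83, 1.11 and 0.460 FPKM in fibrous root, at least 3.93-fold higher (log2 fold change 7.08, SE 1.42, adjusted p = 0.00045), and its call was lost when 1 FPKM was added to both means before the ratio. Its highest mean was 8.47 FPKM in the root apical meristem (RAM).

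Loci of nitrogen assimilation and of its ferredoxin partners were called in each organ. Of 12 loci for glutamine synthetase, glutamate synthase, ferredoxins and their partners, 5 were called in leaf and 5 in fibrous root (0 and 1 of 2 in the OES and FEC subset), and the leaf count fell to 3 on the rescaled values. The group summed to between 3493 and 5352 FPKM per leaf library and to between 4807 and 6073 FPKM per fibrous root library. Glutamine synthetase binds ammonium to glutamate. The gene of the plastid form, Manes.03G186600, lies on 2 loci. The one with the higher level was at 898, 1342 and 1803 FPKM in leaf and at 270.05, 322 and 363 FPKM in fibrous root. It was 4.23-fold lower there and lost its call on the rescaled values. Both loci are among the leaf calls, as are ferredoxin-NADP reductase loci, so the 5 are not separate genes of nitrogen assimilation. Manes.03G186600 falls outside the naming rule because its counts may be divided between loci. Manes.01G119500, annotated as glutamine synthase clone R1, a cytosolic form, was at 11.3, 35.1 and 51.3 FPKM in leaf and at 1622, 2047 and 1722 FPKM in fibrous root, 55.2-fold higher (log2 fold change 5.80, SE 0.46, adjusted p = 3.41e-11). Manes.02G077900 was at 29.2, 62.4 and 55.3 FPKM against 1041, 1437 and 1254 FPKM, 25.4-fold higher in fibrous root.

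Glutamate synthase, the next step, was divided by its electron donor. The ferredoxin-dependent form, Manes.09G005600, was at 242, 255 and 277 FPKM in leaf and at 52.2, 61.0 and 52.9 FPKM in fibrous root, 4.66-fold lower (log2 fold change -2.18, SE 0.18, adjusted p = 6.03e-11), and lost its call on the rescaled values. The NADH-dependent form, Manes.06G159400, was at 14.7, 27.7 and 27.2 FPKM in leaf and at 661, 830.3 and 640.4 FPKM in fibrous root, 30.7-fold higher (log2 fold change 5.06, SE 0.41, adjusted p = 3.91e-11). In the other 9 sample types its mean reached at most 62.5 FPKM. Loci for ferredoxin and for its reductase also took different directions, but ferredoxin 3 was the only ferredoxin in the group. Ferredoxin-NADP reductase 2 of the leaf, Manes.01G146600, was at 914, 720.5 and 1065 FPKM against 0.352, 0.309 and 0.306 FPKM, 2788-fold. Ferredoxin 3, known as the root form, was at 32.6, 38.9 and 40.0 FPKM in leaf and at 141, 178 and 137 FPKM in fibrous root for Manes.04G003400, 4.09-fold higher, and was chosen after its values were seen, as were the next genes. Glutamate dehydrogenase 2, Manes.14G041300, was at 0.726, 1.12 and 1.17 FPKM against 48.6, 55.3 and 40.8 FPKM, 48.0-fold higher in fibrous root. Nitrite reductase 1, Manes.10G071700, was at 209.8, 882 and 728 FPKM in leaf and at 913, 1072 and 982 FPKM in fibrous root (log2 fold change 0.72, SE 0.58, adjusted p = 0.285), so no difference could be shown at the spread between leaf libraries.

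**Figure D3:**
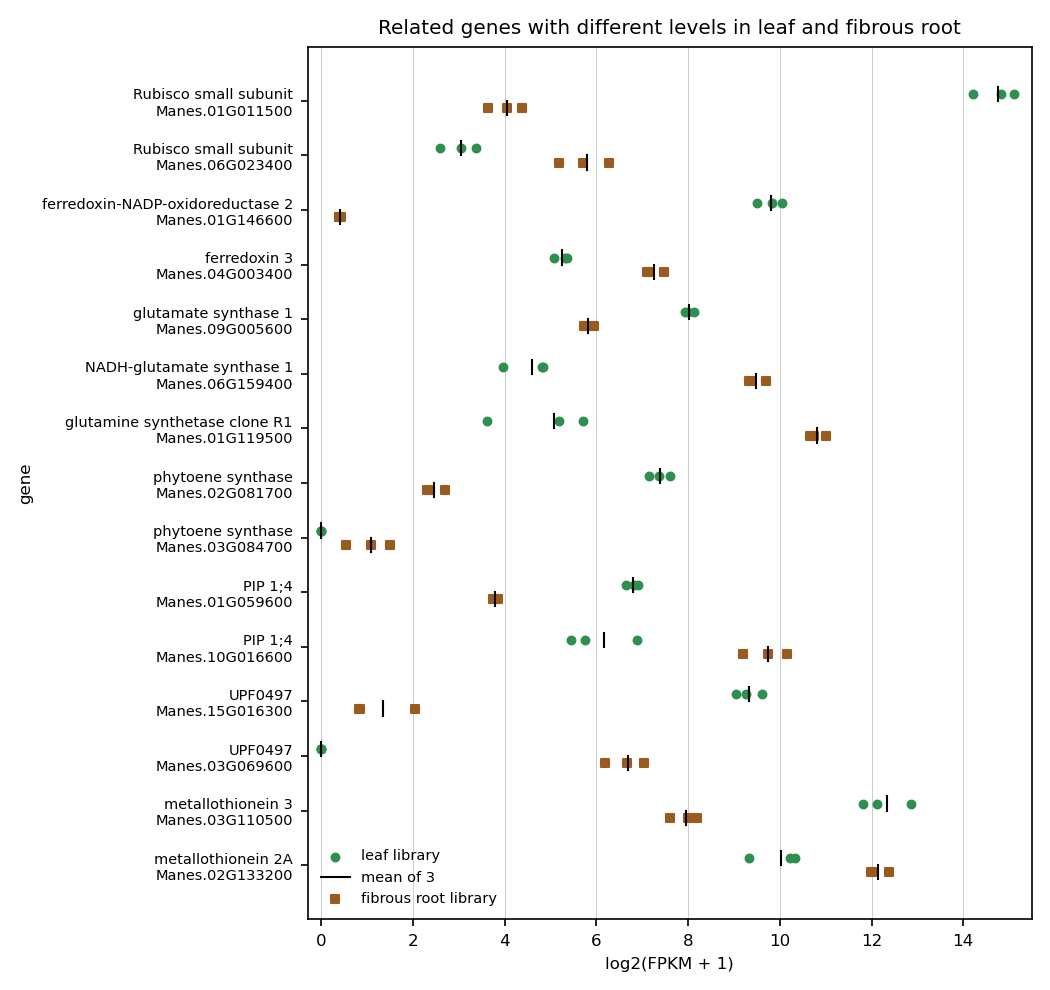
Level of 15 related genes in each library, as log2(FPKM + 1), with circles for leaf, squares for fibrous root and a black tick at the mean of 3. Within several families, members stand in opposite order: ferredoxin-dependent glutamate synthase is higher in leaf (242 to 277 FPKM) and the NADH-dependent form in fibrous root (640.4 to 830.3 FPKM).

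Genes of starch and sucrose metabolism also took both directions. Of 32 measured loci, 12 were called in leaf and 6 in fibrous root (3 and 2 of 11 in the OES and FEC subset), and the leaf count fell to 4 on the rescaled values. Over all annotated loci the shares were 29.2% and 37.4%, so the group lies near that share in leaf and under it in fibrous root. Sucrose synthase 4, which cleaves sucrose, had the highest level among the genes of this group called in fibrous root. Manes.03G044400 (chromosome 3, 3583061 to 3589778) was at 5.32, 7.54 and 4.59 FPKM in leaf and at 1418, 1713 and 924 FPKM in fibrous root, 232-fold higher (log2 fold change 7.92, SE 0.49, adjusted p = 2.05e-13). RAM (684 FPKM), shoot apical meristem (SAM, 570.3 FPKM) and storage root (460.1 FPKM) followed. ADP-glucose pyrophosphorylase makes the substrate of starch, and a large-subunit locus, Manes.03G182100, was at 244, 248 and 262 FPKM in leaf and at 0.0544, 0.0456 and 0 FPKM in fibrous root, at least 1723-fold lower. Outside leaf, its next highest mean was 102 FPKM in midvein.

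Starch branching enzymes differed in how far their fibrous root libraries agreed. Manes.08G022400, starch branching enzyme 2.2, was at 180.5, 199 and 136 FPKM in leaf and at 41.5, 14.8 and 12.5 FPKM in fibrous root, 7.50-fold lower (log2 fold change -2.87, SE 0.30, adjusted p = 5.74e-09) and 12.6-fold lower without Fibrous Root 1, a call that the rescaled values did not keep. Sucrose-phosphate synthase 3F, which makes sucrose for export, was at 47.6, 51.6 and 48.4 FPKM against 0.808, 0.678 and 0.541 FPKM for Manes.15G055400, 72.8-fold, and was chosen after its values were seen. Sugar exporters of the nodulin MtN3 family went both ways, with 2 of 5 loci called in fibrous root and 1 in leaf. Manes.09G172000 was at 16.2, 17.3 and 39.3 FPKM in leaf and at 94.2, 130.5 and 96.6 FPKM in fibrous root, 4.41-fold, and fell short of the fold limit without Leaf 1 (log2 fold change 1.89), Leaf 2 (1.91) or Fibrous Root 2. Manes.01G053100 was at 0 in the leaf libraries and at 10.3, 10.1 and 4.19 FPKM in fibrous root, at least 16.8-fold higher. The leaf call, Manes.03G197300, was low, at 1.28, 0.818 and 1.31 FPKM in leaf and at 0.127, 0.360 and 0.160 FPKM in fibrous root, 5.28-fold lower or 7.95-fold without Fibrous Root 2, and both loci of Manes.02G174100 were not called.

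Mineral transporters were almost evenly divided, with 19 of 56 loci called in leaf and 18 in fibrous root (7 and 4 of 25 in the OES and FEC subset). Both lie near or under the shares over all annotated loci, 29.2% and 37.4%. With 1 FPKM added to both means, 9 were called in fibrous root, and most of the others have low levels. Within the group, 4 of 10 nitrate and ammonium transporters were called in fibrous root and 3 in leaf. Nitrate transporter 1.5, which in Arabidopsis loads nitrate into the xylem, was at 0.0660, 0.169 and 0.724 FPKM in leaf and at 109, 133 and 90.9 FPKM in fibrous root for Manes.05G061100, 347-fold higher (log2 fold change 8.63, SE 0.55, adjusted p = 3.58e-13). Without Leaf 3 it was 946-fold. Manes.06G111400, another nitrate transporter, was at 5.03, 8.23 and 9.13 FPKM against 123, 156 and 226 FPKM. The ammonium transporters stood in opposite order. Manes.08G141800, ammonium transporter 1;2, was at 0, 0.266 and 1.83 FPKM in leaf and at 189, 279 and 389.9 FPKM in fibrous root, 409.96-fold higher (log2 fold change 8.84, SE 0.69, adjusted p = 2.66e-11), or 2148-fold without Leaf 3. Ammonium transporter 1;1, Manes.03G156400, chosen after its values were seen, was at 27.3, 19.5 and 15.3 FPKM against 0.459, 1.12 and 1.10 FPKM, 23.2-fold higher in leaf.

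For potassium, 4 of 8 loci were called in fibrous root and 1 in leaf. The high-affinity potassium transporter 5, which Arabidopsis roots induce under potassium shortage, was at 0, 0 and 0.0636 FPKM in leaf and at 17.5, 23.9 and 21.3 FPKM in fibrous root for Manes.09G172900, at least 143-fold higher, and was chosen after its values were seen. All 7 phosphate transporter loci were called, 4 in leaf and 3 in fibrous root. Manes.02G121100, phosphate transporter 4;1, a plastid transporter, was at 275, 316 and 433 FPKM in leaf and at 4.09, 2.52 and 4.02 FPKM in fibrous root, 96.3-fold lower (log2 fold change -6.17, SE 0.21, adjusted p = 3.35e-18). Magnesium transporters had 4 of 5 loci called in leaf and 1 in fibrous root, and of 10 sulfate transporter loci 2 were called in each organ and 6 in neither. Iron is reduced before uptake. Ferric reduction oxidase 6, Manes.06G016800, was at 311, 113 and 235 FPKM in leaf and at 0.404, 0.339 and 0.317 FPKM in fibrous root, 621-fold lower. Ferric reduction oxidase 2, the root reductase of Arabidopsis, had a pair of loci, both chosen after their values were seen. Manes.05G031600 was at 0 in leaf and at 0.281, 0.505 and 4.26 FPKM in fibrous root, at least 9.95-fold higher (adjusted p = 0.00618), or at least 2.37-fold without Fibrous Root 3. Manes.01G254300 stood the other way, at 20.8, 11.8 and 19.0 FPKM in leaf and at 4.08, 4.66 and 5.71 FPKM in fibrous root, and at 3.57-fold it was under the limit for a call (adjusted p = 4.09e-06).

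Aquaporins pass water through membranes. Of 20 measured loci, 11 were called in fibrous root and 5 in leaf (4 and 3 of 9 in the OES and FEC subset), and the group summed to between 959 and 1305 FPKM per leaf library and between 4417 and 6291 FPKM per fibrous root library. The tonoplast intrinsic proteins of the vacuole had 6 of 7 loci called in fibrous root and 1 in leaf. Manes.01G081600, tonoplast intrinsic protein 2;3 (chromosome 1, 20741569 to 20742776), was at 0.298, 0.287 and 0 FPKM in leaf and at 622, 866 and 668 FPKM in fibrous root, at least 1660.4-fold higher (adjusted p = 3.61e-12). Among the other sample types RAM came next with 30.9 FPKM. Manes.02G040800 was at 0, 0.0963 and 0 FPKM against 499, 736 and 579.6 FPKM, at least 1386-fold higher. Both of these loci were close to absent from leaf in each replicate, but not all tonoplast loci called in fibrous root were. Manes.10G035000, chosen after its values were seen, was at 21.3, 31.0 and 77.8 FPKM in leaf and at 356, 541 and 475 FPKM in fibrous root.

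Plasma membrane aquaporins were less one-sided, with 4 of 10 loci called in fibrous root and 3 in leaf. A gene annotated as plasma membrane intrinsic protein 1;4, Manes.10G016600, was at 52.7, 42.5 and 117 FPKM in leaf and at 860.04, 1141 and 583 FPKM in fibrous root, 12.2-fold higher (log2 fold change 3.63, SE 0.58, adjusted p = 5.97e-06). Another of the same annotation, Manes.01G059600, was at 119, 111 and 99.8 FPKM in leaf and at 12.7, 12.5 and 13.5 FPKM in fibrous root, 8.52-fold lower (log2 fold change -3.06, SE 0.31, adjusted p = 2.87e-09). Manes.02G109200, plasma membrane intrinsic protein 3, was at 180.1, 209.7 and 155 FPKM in leaf and at 0 in the 3 fibrous root libraries, which puts leaf at least 768-fold higher, whereas Manes.05G144100 of the same name was called in fibrous root at 7.30-fold (3.82-fold without Fibrous Root 3 and 39.1-fold without Leaf 1). After leaf, the next highest mean of Manes.02G109200 was 84.8 FPKM in midvein.

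The lignin and Casparian strip group had 27 of 35 loci called in fibrous root and 4 in leaf (7 and 2 of 11 in the OES and FEC subset). Its summed level overlapped, between 959 and 1243.5 FPKM per leaf library and between 1083 and 1481 FPKM per fibrous root library. With a limit of 10 FPKM in place of 1, 13 were called in fibrous root, and the others have lower levels. All 9 laccases, copper enzymes that polymerise lignin, were called in fibrous root, and 7 of 8 dirigent proteins, which direct the coupling of lignin precursors. Laccase 5, Manes.07G135400, was at 0 in leaf and at 29.3, 35.3 and 45.7 FPKM in fibrous root, at least 192-fold higher, and was chosen after its values were seen. The UPF0497 annotation covers the Casparian strip membrane proteins of Arabidopsis and their relatives, and 5 of its 7 loci were called in fibrous root and 1 in leaf. Manes.03G069600 was at 0 in leaf and at 72.1, 101 and 131 FPKM in fibrous root, at least 146-fold higher. The leaf locus, Manes.15G016300, was at 783, 524 and 609 FPKM against 0.769, 0.795 and 3.10 FPKM, 411-fold, or 817-fold without Fibrous Root 3. Ferulate 5-hydroxylase, the branch to syringyl lignin, was at 8.82, 9.51 and 12.7 FPKM in leaf and at 113, 123 and 248 FPKM in fibrous root for Manes.02G100800, 15.6-fold higher (log2 fold change 3.98, SE 0.63, adjusted p = 4.84e-06).

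Peroxidases of the secreted class supply radicals for lignin and other wall polymers. Of 29 measured loci, 24 were called in fibrous root and 1 in leaf (7 and 0 of 8 in the OES and FEC subset). Manes.02G182500 was at 111, 118 and 107 FPKM in leaf and at 711, 1025 and 602 FPKM in fibrous root, 6.97-fold higher (log2 fold change 2.81, SE 0.33, adjusted p = 3.65e-08). Manes.01G030800 was at 0 in leaf and at 101, 128 and 31.1 FPKM in fibrous root, at least 238-fold higher. The leaf call, Manes.07G138800, was at 24.8, 35.5 and 32.8 FPKM in leaf and at 3.48, 2.89 and 6.09 FPKM in fibrous root, 7.47-fold lower. It lies 16005 bases from a peroxidase called in fibrous root, Manes.07G138600, at 0.241, 0.541 and 0.895 FPKM in leaf and at 74.2, 82.2 and 189 FPKM in fibrous root.

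The cuticle and wax group had 5 of 15 loci called in leaf and 3 in fibrous root (3 and 0 of 9 in the OES and FEC subset), near or under the shares over all annotated loci, 29.2% and 37.4%. Cytochrome P450 enzymes of the CYP86A subfamily hydroxylate fatty acids for cutin on shoots and suberin in roots. CYP86A8, Manes.01G059800, was at 101, 164 and 127 FPKM in leaf and at 0.0380, 0.0839 and 0.0948 FPKM in fibrous root, which puts leaf at least 1063-fold higher. CYP86A1, the suberin enzyme of Arabidopsis roots, was at 0 in leaf and at 18.8, 24.5 and 22.1 FPKM in fibrous root for Manes.01G163600, at least 81.5-fold higher (adjusted p = 3.05e-08). Glycerol-3-phosphate acyltransferase 2, Manes.02G157300, was at 36.4, 12.3 and 17.4 FPKM in leaf and at 0 in fibrous root, which puts leaf at least 112-fold higher. The wax and suberin elongase 3-ketoacyl-CoA synthase 10, Manes.03G055800, was at 168, 116 and 116 FPKM against 16.9, 21.2 and 25.7 FPKM and lost its call on the rescaled values.

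Light signalling and the clock had 27 of 38 loci called in leaf and 3 in fibrous root (11 and 1 of 19 in the OES and FEC subset). Since both organs were harvested at one time of day, the values describe that hour only. All 4 pseudo-response regulators, which form part of the clock, were called in leaf, as were the 4 cryptochrome and phototropin loci, the receptors of blue light, and 12 of 13 B-box or CONSTANS-like loci. Pseudo-response regulator 9, Manes.01G239500, was at 331, 316 and 351 FPKM in leaf and at 40.8, 34.3 and 63.6 FPKM in fibrous root, 7.20-fold lower (log2 fold change -2.80, SE 0.24, adjusted p = 1.61e-10), and lost its call on the rescaled values. B-box protein gene Manes.04G044000 was at 355, 323 and 435 FPKM against 1.55, 0.876 and 3.26 FPKM, 196-fold, or 306-fold without Fibrous Root 3. Phototropin-responsive NPH3 proteins went both ways, with 5 of 15 loci called in leaf and 3 in fibrous root. Manes.05G066500 was at 0.370, 0.354 and 0.375 FPKM in leaf and at 5.46, 6.06 and 6.74 FPKM in fibrous root, 16.6-fold higher.

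Organ polarity factors had 5 of 15 loci called in leaf and 4 in fibrous root (2 and 3 of 8 in the OES and FEC subset). These shares are near or under those over all annotated loci, 29.2% in leaf and 37.4% in fibrous root. YABBY proteins mark the lower side of leaves. Manes.04G064600 was at 26.6, 21.7 and 28.6 FPKM in leaf and Manes.05G048000 at 12.0, 8.11 and 9.95 FPKM, and both were at 0 in the 3 fibrous root libraries, at least 83.0-fold and 42.8-fold lower. Growth-regulating factor 5, Manes.11G020200, was at 0 in leaf and at 4.95, 5.70 and 3.41 FPKM in fibrous root, at least 18.1-fold higher, with its highest mean of 35.0 FPKM in SAM. WUSCHEL-related homeobox genes keep stem cells and pattern organs. WOX1, Manes.06G007300, was at 7.23, 4.03 and 6.74 FPKM in leaf and at 0 in fibrous root, whereas WOX5, Manes.10G016700, which marks the root stem cell niche in Arabidopsis, was at 0 in leaf and at 0.539, 1.34 and 1.79 FPKM in fibrous root. Both were called, at least 46.9-fold and 1.86-fold, and were chosen after their values were seen.

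Auxin genes had 31 of 69 loci called in fibrous root and 12 in leaf (20 and 4 of 38 in the OES and FEC subset). Over all annotated loci the shares were 37.4% in fibrous root and 29.2% in leaf, and over all loci of that subset 35.6% and 20.8%. GH3 enzymes conjugate auxin to amino acids, and 5 of 6 were called in fibrous root. Auxin efflux carriers had 5 of 10 loci called in fibrous root and 0 in leaf. Manes.08G060200, chosen after its values were seen, was at 0.541, 0.929 and 1.44 FPKM in leaf and at 21.2, 27.7 and 23.4 FPKM in fibrous root, 24.9-fold higher (log2 fold change 4.64, SE 0.24, adjusted p = 5.52e-15). AUX/IAA repressors showed the other balance, with 4 of 11 loci called in leaf and 1 in fibrous root. IAA14, which blocks lateral root formation in Arabidopsis when it is stabilised, was higher in leaf at both loci named here. Manes.05G084300 was at 209, 173 and 152 FPKM in leaf and at 1.79, 2.35 and 1.18 FPKM in fibrous root, and Manes.15G036200 at 184, 171 and 173 FPKM against 29.0, 34.6 and 8.93 FPKM. SAUR genes, early targets of auxin, were even, with 7 of 22 loci called in each organ, near or under the shares over all annotated loci. A dormancy/auxin-associated gene, Manes.09G171400, was at 648, 223 and 125 FPKM in leaf and at 1908, 1879 and 1107 FPKM in fibrous root, 4.91-fold higher, and without Leaf 3 it fell under the limit (log2 fold change 1.83), while without Leaf 1 it was 9.38-fold. Its mean in storage root was 9570.4 FPKM.

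Transcription factors were called in fibrous root more often than in leaf, 114 against 53 of 232 loci (44 and 18 of 98 in the OES and FEC subset), and 71 were called in fibrous root with 1 FPKM added to both means. Over all loci of that subset the shares were 35.6% and 20.8%. The group's summed level ran the other way, from 3323 to 3631 FPKM per leaf library and from 2858 to 3054 FPKM per fibrous root library. The families differed. MYB factors had 30 of 41 loci called in fibrous root and 9 in leaf, WRKY factors 20 of 38 and 3, NAC factors 14 of 24 and 3, and homeobox factors 19 of 45 and 14. MADS factors had 4 of 7 called in leaf and 0 in fibrous root. WRKY70, a regulator of salicylic acid responses, was one of the 3 leaf WRKY genes. Manes.08G170600 was at 335, 226 and 371 FPKM in leaf and at 21.9, 32.6 and 13.4 FPKM in fibrous root, 13.7-fold lower (log2 fold change -3.77, SE 0.65, adjusted p = 1.66e-05). MYB36, which switches on Casparian strip formation in Arabidopsis, was at 0 in leaf and at 6.36, 7.75 and 23.4 FPKM in fibrous root for Manes.04G014800, at least 35.2-fold higher, or at least 20.1-fold without Fibrous Root 3. A bHLH gene, Manes.08G058700, was at 0 in leaf and at 32.2, 36.3 and 42.2 FPKM in fibrous root, at least 433-fold higher. The last 2 genes were chosen after their values were seen.

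Cytochrome P450 enzymes carry out oxidations in hormone and defence chemistry. Of 89 measured loci, 55 were called in fibrous root and 20 in leaf (21 and 7 of 36 in the OES and FEC subset), with sums of 1194 to 1439 FPKM per leaf library and 1429 to 1788 FPKM per fibrous root library. Manes.08G047000, CYP712A1, was at 0, 0.0529 and 0.203 FPKM in leaf and at 215, 267 and 222 FPKM in fibrous root, at least 1004-fold higher (adjusted p = 4.55e-15). CYP707A2, which breaks down abscisic acid, was higher in leaf, with Manes.01G170900 at 135, 177 and 182 FPKM against 0.249, 0.553 and 1.14 FPKM, 254-fold, or 411-fold without Fibrous Root 3. CYP77A5, Manes.02G071200, was at 1.31, 9.68 and 10.4 FPKM in leaf and at 126, 149.6 and 116 FPKM in fibrous root, 18.3-fold higher. The CYP71 subfamilies had 8 of 10 loci called in fibrous root and 1 in leaf.

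Defence proteins had 31 of 57 loci called in fibrous root and 10 in leaf (13 and 1 of 20 in the OES and FEC subset), while their summed levels overlapped, between 2649 and 2997 FPKM per leaf library and between 1416 and 2750.3 FPKM per fibrous root library. Chitinases, which cut fungal walls, had 8 of 12 called in fibrous root and 1 in leaf, and terpene synthases 5 of 7 and 1. The MLP-like proteins, relatives of the latex and Bet v 1 proteins, were all called, 6 of 10 in fibrous root and 4 in leaf. Manes.15G130000, annotated as MLP-like protein 28, was at 0 in leaf and at 216, 257 and 1010.2 FPKM in fibrous root, at least 617-fold higher, or at least 295-fold without Fibrous Root 3. Manes.05G090000, MLP-like protein 423, was at 656, 1160.4 and 1206 FPKM in leaf and at 0.618, 0 and 1.91 FPKM in fibrous root, 1194-fold lower (log2 fold change -10.26, SE 0.56, adjusted p = 1.78e-14), or 3261-fold without Fibrous Root 3. Of 7 loci named MLP-like protein 423, 4 were called in leaf and 3 in fibrous root. Its neighbour Manes.05G089700 was uneven among leaves, at 911, 83.9 and 264 FPKM in leaf against 7.85, 10.4 and 3.51 FPKM in fibrous root, 58.0-fold, or 24.1-fold without Leaf 1. Germin-like protein 1, Manes.04G144900, was uneven in another way, at 97.9, 865 and 905 FPKM in leaf and at 5.70, 6.71 and 6.45 FPKM in fibrous root, 99.1-fold lower, so different leaf libraries were low for these genes.

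Metal-binding genes had 20 of 34 loci called in fibrous root and 7 in leaf (9 and 3 of 14 in the OES and FEC subset), and 10 were called in fibrous root with 1 FPKM added to both means. Sums ran from 5308 to 9742 FPKM per leaf library and from 5107 to 6507 FPKM per fibrous root library. Metallothioneins are small cysteine-rich proteins that bind copper and zinc. Metallothionein 3, Manes.03G110500, was at 4458, 3621 and 7442 FPKM in leaf and at 193, 254 and 289.7 FPKM in fibrous root, 21.1-fold lower (log2 fold change -4.50, SE 0.43, adjusted p = 1.36e-09). Metallothionein 2A, Manes.02G133200, was at 1288, 642 and 1185 FPKM in leaf and at 4046, 4242 and 5333 FPKM in fibrous root, 4.37-fold higher (log2 fold change 2.08, SE 0.43, adjusted p = 0.000149). It fell short of the fold limit without Leaf 2 (log2 fold change 1.83) and without Fibrous Root 3 (1.94). A locus of the same name, which holds Manes.08G079000 and a neighbour, was called in leaf, at 1589.5 FPKM in Leaf 1, 444 in Leaf 2 and 431 in Leaf 3 against 55.7, 13.5 and 13.1 FPKM, 29.9-fold higher, and was named after its values were seen. Nicotianamine synthase 4, whose product carries iron and other metals, was at 0, 0.0936 and 0 FPKM in leaf and at 89.1, 119 and 231 FPKM in fibrous root for Manes.09G176800, at least 345-fold higher.

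Cell wall genes took both directions, with 16 of 46 loci called in fibrous root and 9 in leaf (5 and 5 of 21 in the OES and FEC subset). Over all annotated loci the shares were 37.4% and 29.2%, so the group lies near or under them. Of the 16, 7 are loci of fasciclin-like arabinogalactan genes, cell wall proteoglycans that were also counted as xylem markers. Without Fibrous Root 1, 12 were called in fibrous root. Expansins, which loosen walls as cells grow, had 6 of 21 loci called in each organ. Expansin A1, Manes.05G103900, was at 143, 327 and 597 FPKM in leaf and at 27.9, 38.7 and 39.8 FPKM in fibrous root, 10.03-fold lower, or 6.63-fold without Leaf 3. Of the other expansin A1 loci, 1 was called in leaf and 1 in fibrous root. Xyloglucan endotransglucosylase 32, Manes.11G151500, was at 0 in leaf and at 193, 193 and 106 FPKM in fibrous root, at least 446-fold higher, with 512 FPKM in storage root.

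Outside these groups, lipid-transfer and storage-like proteins were among the called loci of highest level. Lipid-transfer protein Manes.01G112700 was at 9253, 4928 and 6674 FPKM in leaf and at 0.974, 2.90 and 2.84 FPKM in fibrous root, 3106-fold lower (log2 fold change -11.72, SE 0.50, adjusted p = 1.62e-16). Another lipid-transfer protein, Manes.01G078200, was at 0.499, 0.321 and 0.319 FPKM in leaf and at 1010.2, 1381 and 142 FPKM in fibrous root, at least 1118-fold higher, with Fibrous Root 3 well under the others. Manes.04G116100, annotated as unknown seed protein like 1 (chromosome 4, 24778086 to 24779481), was at 0.748, 0.559 and 1.23 FPKM in leaf and at 2343, 2784 and 2033 FPKM in fibrous root, 2818-fold higher (log2 fold change 11.53, SE 0.62, adjusted p = 1.5e-14). RAM came next with a mean of 1264 FPKM, and OES followed with 69.0 FPKM. The thiazole enzyme THI1 of vitamin B1 synthesis, Manes.03G123800, was at 2942, 5608 and 2868 FPKM in leaf and at 195, 116 and 66.7 FPKM in fibrous root.

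Genes of the same annotation that lie side by side were called in the same organ or in opposite ones. Of 152 pairs with identical annotation text and at most 50000 bases between them, both members were called in 105. In 66 of these both were higher in fibrous root, in 21 both were higher in leaf, and in 18 the members were called in opposite organs. No share over other pairs is given. Of all annotated loci tested, 66.5% were called, 29.2% in leaf and 37.4% in fibrous root. Those are shares of single loci and not of pairs, and whether neighbours differ from other pairs was not tested. Fragments of similar neighbours may have been divided between them in mapping, so single values are uncertain. All genes in this paragraph were chosen after their values were seen. Osmotin 34, a defence protein, lies on chromosome 2 as Manes.02G025100 (1987601 to 1988477) and Manes.02G025200 (1992284 to 1993163), 3807 bases apart. The first was at 4.55, 8.89 and 7.55 FPKM in leaf and at 0.868, 0.261 and 0 FPKM in fibrous root, 18.6-fold lower, with a range of 12.4-fold without Fibrous Root 3 to 53.6-fold without Fibrous Root 1. The other was at 0 in leaf and at 4.10, 3.51 and 0.969 FPKM in fibrous root, at least 5.45-fold higher. Phosphate transporter 1;7 lies on chromosome 3 as Manes.03G164600 (25765279 to 25768318) and Manes.03G164700 (25772432 to 25775567), 4114 bases apart. The first was at 11.7, 7.81 and 10.8 FPKM in leaf and at 0.0814, 0.0451 and 0.0509 FPKM in fibrous root, at least 72.9-fold lower. The other was at 0.243, 0.310 and 0 FPKM in leaf and at 4.32, 6.81 and 5.98 FPKM in fibrous root, 30.9-fold higher, with a range of 20.6-fold without Leaf 3 to 47.0-fold without Leaf 2. In both pairs no library of one organ overlapped those of the other, as was the case at 67.6% of all tested loci.

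The remaining 9 sample types show how far each set of calls belongs to its organ. The 3573 loci called in leaf had a median of 33.1 FPKM in leaf, 21.2 in midvein, 8.39 in petiole, 8.37 in stem and 1.35 in storage root, and 70.2% of them had their highest mean in leaf. The 3769 loci called in fibrous root had a median of 8.45 FPKM there, 4.40 in RAM, 2.68 in stem and 1.51 in storage root, and 35.8% had their highest mean in fibrous root, 15.6% in RAM and 13.1% in storage root. These shares share the leaf and fibrous root libraries with the calls, so only the other sample types add to the description.

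**Figure D4:**
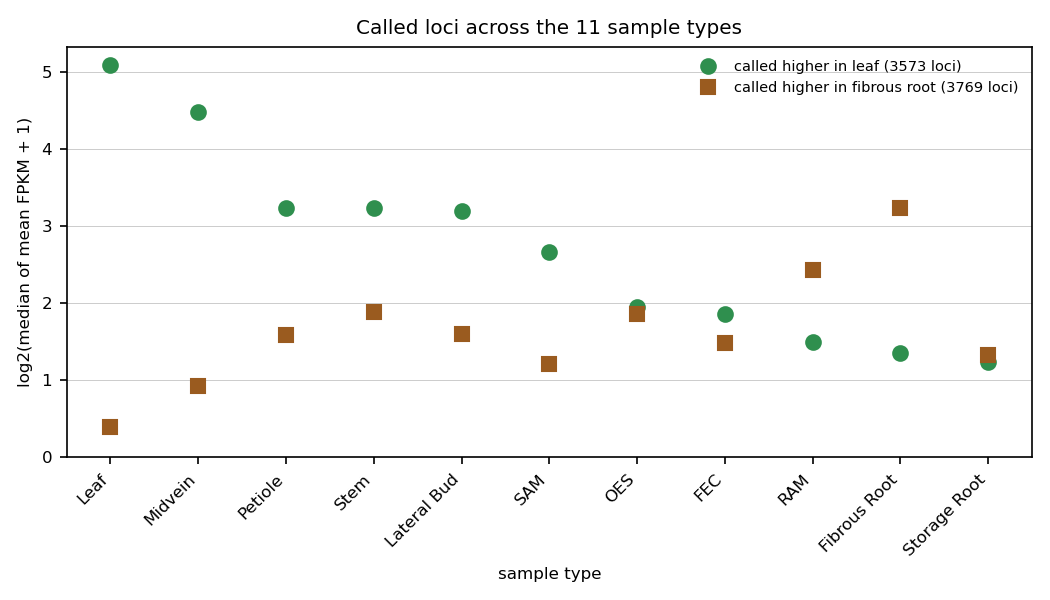
Median over loci of the mean FPKM per sample type, as log2(median + 1), for the loci called in leaf and the loci called in fibrous root, across the 11 sample types. The leaf set declines from 33.1 FPKM in leaf through midvein to storage root, and the fibrous root set from 8.45 FPKM in fibrous root through RAM to leaf.

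Most leaf markers were called in leaf, and most root hair and root tip loci in fibrous root. Mineral transporters were also taken as root markers, and of 56 loci 18 were called in fibrous root and 19 in leaf. Photosystem and carbon fixation loci marked the leaf, as given above. Exceptions in the smaller lists were SCARECROW-like 14, in leaf, and BASL, a gene of the stomatal lineage, at 0 in leaf. For fibrous root, 4 of 5 root hair and root tip loci were called there (1 of 2 in the OES and FEC subset, with 1 in leaf). Among them was Manes.12G111100, root hair specific 19, at 3.02, 2.27 and 3.34 FPKM in leaf and at 14.01, 19.7 and 9.22 FPKM in fibrous root. Its call was lost with 1 FPKM added to both means. SCARECROW-like 1, Manes.02G173300, was at 12.0, 15.3 and 10.3 FPKM in leaf and at 42.9, 55.6 and 54.2 FPKM in fibrous root, just past the limit at 4.07-fold, and fell under it without Leaf 1 or 3 or Fibrous Root 2 or 3 (log2 fold change 1.90 to 2.01). The summed level of the group was higher in stem (mean 218 FPKM) and storage root (204 FPKM) than in fibrous root (126 FPKM). Its leaf member was SCARECROW-like 14, Manes.01G171700, at 25.5, 24.0 and 23.0 FPKM against 4.40, 2.22 and 3.97 FPKM. That leaf call was lost on the rescaled values.

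Markers of other cells differed between the organs and between fibrous root libraries. Xylem markers had 10 of 11 loci called in fibrous root (0 of 1 in the OES and FEC subset). Of these calls, 7 are fasciclin-like loci close together on chromosome 4 (2467075 to 2492331), where Manes.04G022900 counts more than once. The calls are thus not of 10 separate marker genes. Xylem marker FPKM summed to between 2.30 and 17.7 per leaf library and between 38.4 and 146 per fibrous root library. Without Fibrous Root 1, 6 were called. Fasciclin-like arabinogalactan protein 12, a gene of wood fibres, was at 20.3 FPKM in Fibrous Root 1 and at no more than 1.30 in the others at Manes.04G023000, with 91.6 FPKM in storage root, and it was not called without Fibrous Root 1 (adjusted p = 0.129). Phloem markers had 2 of 7 loci called in fibrous root and 1 in leaf (2 and 0 of 6 in the OES and FEC subset). Phloem protein 2-A12 was higher in leaf at Manes.02G027400, at 107, 101 and 131 FPKM against 18.7, 14.3 and 21.9 FPKM, and lost its call on the rescaled values. Phloem protein 2-A14 was higher in fibrous root at Manes.14G028700, at 1.01, 0.716 and 0.276 FPKM against 8.30, 9.57 and 11.5 FPKM. The sugar loader sucrose-proton symporter 2, Manes.18G099400, was at 55.7, 46.5 and 47.3 FPKM in leaf and at 51.0, 64.8 and 24.5 FPKM in fibrous root (log2 fold change -0.06, SE 0.30, adjusted p = 0.864), and its direction turned without Leaf 1 or Fibrous Root 3. The gene lies on a further locus, called in fibrous root at 10.02-fold (6.68-fold without Leaf 3 and 137-fold without Leaf 2), so its values may be divided. Markers of dividing cells had 9 of 18 loci called in fibrous root and 1 in leaf (1 and 0 of 3 in the OES and FEC subset). They summed to between 534 and 1976 FPKM in leaf and between 284 and 472 FPKM in fibrous root. With 1 FPKM added to both means, 2 were called in fibrous root. Cyclin B2;3, Manes.02G112900, was at 0.0922, 0.118 and 0.566 FPKM in leaf and at 1.55, 0.678 and 4.52 FPKM in fibrous root (8.69-fold, or 4.31-fold without Fibrous Root 3 and 21.4-fold without Leaf 3, adjusted p = 0.0155), and was not called without Fibrous Root 3, Leaf 1 or Leaf 2 (adjusted p = 0.11, 0.0542 and 0.0689). The stomatal lineage list held only BASL, Manes.06G080900, at 0 in leaf and at 0.191, 0.771 and 3.79 FPKM in fibrous root, not called by DESeq2 (adjusted p = 0.0781) and under the limit of 1 FPKM without Fibrous Root 3. The part of these cells in the results above was not tested.

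Some fibrous root libraries stood apart at sets of genes. At 133 of 22562 loci that reached a mean of 1 FPKM in fibrous root (0.589%), Fibrous Root 1 was more than 4 times both others, and at 82 of the 133 storage root had the highest mean of the other sample types. For Fibrous Root 2 it was 59 loci, 14 with storage root highest. For Fibrous Root 3 it was 220 loci (0.975%), of which 11 had storage root, 37 RAM and 60 stem highest. Single leaf libraries stood apart at 99 to 134 of 21411 loci. Starch branching enzyme 2.1, Manes.05G133800, was among the genes of Fibrous Root 1, at 112, 19.2 and 17.4 FPKM in fibrous root against 55.6, 45.9 and 42.5 FPKM in leaf, with 298 FPKM in storage root (adjusted p = 0.842). A WRKY factor, Manes.05G056100, was at 12.7 FPKM in Fibrous Root 1, at no more than 0.175 FPKM in the others and at 140.5 FPKM in storage root. It was called at 19.7-fold, which was 0.757-fold without Fibrous Root 1 and 30.1-fold without Leaf 2. In Fibrous Root 3, expansin B2 at Manes.05G049700 was at 38.3 FPKM against no more than 8.76 FPKM (at least 38.9-fold over leaf, and 15.8-fold without that library), and basic chitinase at Manes.08G078600 at 43.1 FPKM against no more than 9.74 FPKM. These genes were chosen after their values were seen, and the part of such tissue in the calls was not tested. With each library left out in turn, the loci called in fibrous root numbered between 3595 and 3831.

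**Figure D5:**
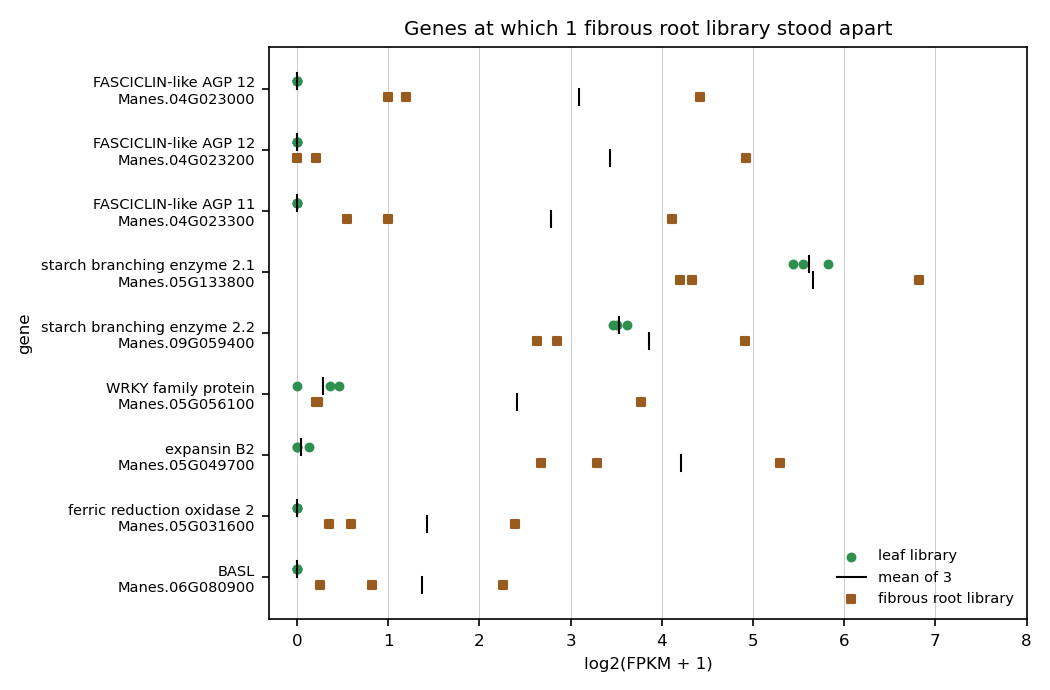
Level, as log2(FPKM + 1), of genes at which a single fibrous root library stood apart, with circles for leaf libraries, squares for fibrous root libraries and a black tick at the mean of 3. Fasciclin-like, starch branching and WRKY genes are highest in Fibrous Root 1 (20.3 FPKM for Manes.04G023000), and expansin B2, ferric reduction oxidase 2 and BASL in Fibrous Root 3 (38.3 FPKM for Manes.05G049700).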

How the data were processed

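RNA-seq was analysed for Leaf and Fibrous Root, 3 libraries each. Per the submitters' processing notes and the paper's methods, the authors used Trimmomatic 0.32 for trimming and TopHat2 (2.0.10 in the notes, another release in the paper) for mapping to the AM560-2 v6.1 assembly, and built and quantified loci with Cufflinks, Cuffmerge and Cuffdiff 2.2.1. For the deposited FPKM, Cuffdiff had scaled the library sizes. The estimated counts of fragments per locus, as deposited, are partly fractional, 79.6% of those above 0 being whole within 1e-06. Loci without a gene name, which took 1.73% to 4.31% of the fragments in these libraries, were left out, and 2063 named loci hold several genes.

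The counts were rounded and tested with edgeR 4.0.16 (quasi-likelihood, TMM factors 0.720 to 1.15, common biological coefficient of variation 0.264) in R 4.3.3, in a fit of 27855 loci over all 32 libraries with 11 sample-type means. Loci whose mean reached 1 FPKM in leaf or fibrous root were tested, and a call needed an adjusted p below 0.05 and more than 4-fold between the mean FPKM of the organs. SE was computed as the log2 fold change over the root of F, the test's statistic. The script was tested on simulated data with known changes. Lower bounds cover counting error only. Tables and plots were made with Python 3.11.15, pandas 2.3.3, numpy 2.4.6 and matplotlib 3.10.9.

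Annotation came from the annotation column alone of the study's 3 supplementary gene lists, which were held in shortened form, and 26 groups of genes were matched in it by words. One of them, for cyanogenic glucosides, found no member. The groups and their members were chosen with earlier results of these data known. Named genes are, per group and direction, the 3 called single-gene loci of highest mean FPKM without overlap between libraries, all members of groups with at most 8 tested members, and the 10 leading annotated loci per direction, from which the text draws. Others are marked as chosen after their values were seen.

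Alternatives were DESeq2 1.42.0, limma 3.58.1 on log2(FPKM + 1) and log2(FPKM + 0.1), median-ratio size factors, other limits on low values and fold scales, FPKM rescaled to a common sum, a fit of the 6 libraries, the replicate number as a block, single-gene loci, and each library left out in turn.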

Additional observations from a re-analysis of the deposited data

How the results depend on the processing

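The 7342 calls, 3573 in leaf and 3769 in fibrous root, stayed within 1.5 times under every alternative run except these. A limit of 10 FPKM gave 4296 calls, 1725 of them in fibrous root, and the fold limit on FPKM + 1 gave 2359 in fibrous root. With FPKM rescaled to a sum of 1000000, 8036 loci were called, of which 6286 kept both call and direction, and the share for fibrous root rose from 51.3% to 68.7%. DESeq2 called 7124 loci, with 16 adjusted p-values not given, and limma 7319 and 7409. With 1 library left out at a time, between 7247 and 7353 loci were called, 3474 to 3682 in leaf and 3595 to 3831 in fibrous root. Of the named genes, 14 lost their call on the rescaled values and 12 with the fold limit on FPKM + 1, and leaving out 1 library cost between 2 and 7 calls. Sucrose-proton symporter 2, at the locus of Manes.18G099400 that was not called, had a log2 fold change of -0.06, which turned to 0.01 without Leaf 1 and 0.25 without Fibrous Root 3 and ranged down to -0.36 without Fibrous Root 2. With the replicate number as a block, 7318 loci were called, 7296 of them shared in the same direction. Deviations of same-numbered libraries correlated at 0.0547, 0.0771 and 0.0333, each the highest for its number but under 0.1, so the numbers were not taken to pair the plants. Calls in fibrous root rest more often on a lower organ at the floor of 3 fragments, where depth allows only a lower bound.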
